A study of Mus musculus with 14 samples.

Results

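A set of 10 growth-related imprinted genes was followed gene by gene through the 14 libraries: H19, Igf2, Dlk1, Meg3, Mest, Peg3, Plagl1, Grb10, Cdkn1c and Ndn. They were chosen by name as well-known imprinted genes with roles in fetal growth, with earlier results of these data known. All 10 were found among the 28022 genes of the count table. An imprinted gene is read mainly from the copy inherited from one parent, and many imprinted genes are abundant in the fetus and are turned down after birth. Paternally expressed members such as Igf2, Dlk1, Peg3, Mest, Plagl1 and Ndn, and maternally expressed members such as H19, Meg3, Cdkn1c and Grb10, are often described as a network in which growth-promoting and growth-restraining products act together. RNA-seq counts sum the reads of both parental copies, so the values below are total transcript levels and not a measure of imprinting itself.

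The 7 conditions had 2 libraries each and all came from the mouse strain C57BL/6J, apart from the human cells named next. Fib were fibroblasts of E13.5 embryos. 2D-iHepSC were induced hepatic stem cells made from such fibroblasts by lentiviral delivery of Hnf4alpha and Oct4 and grown on a flat surface. 2D-iHepSCiEC were the same cells grown flat together with induced endothelial cells, which the methods describe as human fibroblasts of the HF1 line converted with ETV2. 3D-iHA, labelled as hepatic assembloids in 3D, were taken here to be the 3D cultures of the induced hepatic stem cells without endothelial cells, an identity that the labels do not spell out, and 3D-iHEA were 3D assembloids of both cell types. Adult-Liver came from 6-week-old males, and Fetal-Liver came from E14.5 fetuses. The number of animals or of independently converted lines behind the libraries is not given in the sources used here, so the p-values measure only the spread between these libraries, which may be technical.

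The libraries held 20851489 to 35143325 counts. Levels are given as CPM, that is, counts scaled by the TMM-adjusted library size, and 3 counts in a library, which is the floor used for a gene with no counts, corresponded to 0.0752 to 0.211 CPM. Libraries of a condition differed by a chi-square statistic of 3.05 to 3.67 per gene, except for 11.5 in 3D-iHEA and 13.4 in Fetal-Liver. Fibroblast identity was clear in Fib, where the 10 fibroblast markers summed to 29455.7 to 30977.2 CPM, and the same list summed to 4.44 to 13.3 CPM in the 8 cultures, with 3 to 5 of the 10 genes at or under the floor in each culture condition. Hepatocyte markers summed to 321.0 to 431.3 CPM in the cultures against 572823 to 612482 CPM in Adult-Liver, and Alb itself had 210 counts in the first 2D-iHepSC library and 2 to 20 in the other culture libraries.

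The 10 members together took 1.17% of all counts in each Fib library and 0.960% and 1.01% in the Fetal-Liver libraries. In the 8 culture libraries they took 0.000319% to 0.000746%, and in Adult-Liver 0.00329% and 0.00347%. For every member, all 8 culture libraries lay below all 4 Fib and Fetal-Liver libraries, a separation that 18.3% of the 14121 genes tested over the 14 libraries showed. The gap between the lowest Fib or Fetal-Liver library and the highest culture library was at least 100-fold for 7 of the 10 members (H19, Igf2, Meg3, Peg3, Mest, Plagl1 and Grb10), against 0.892% of the tested genes. Both counts are descriptions, since Igf2, Dlk1, Meg3, Peg3, Plagl1 and Grb10 were among the tested genes only through the Fib and liver libraries in which they were high. It was narrower for Dlk1 (76.0-fold), Ndn (6.38-fold) and Cdkn1c (3.61-fold). In bulk libraries such as these, fewer cells that express a gene and less RNA per cell cannot be told apart.

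**Figure D1:**
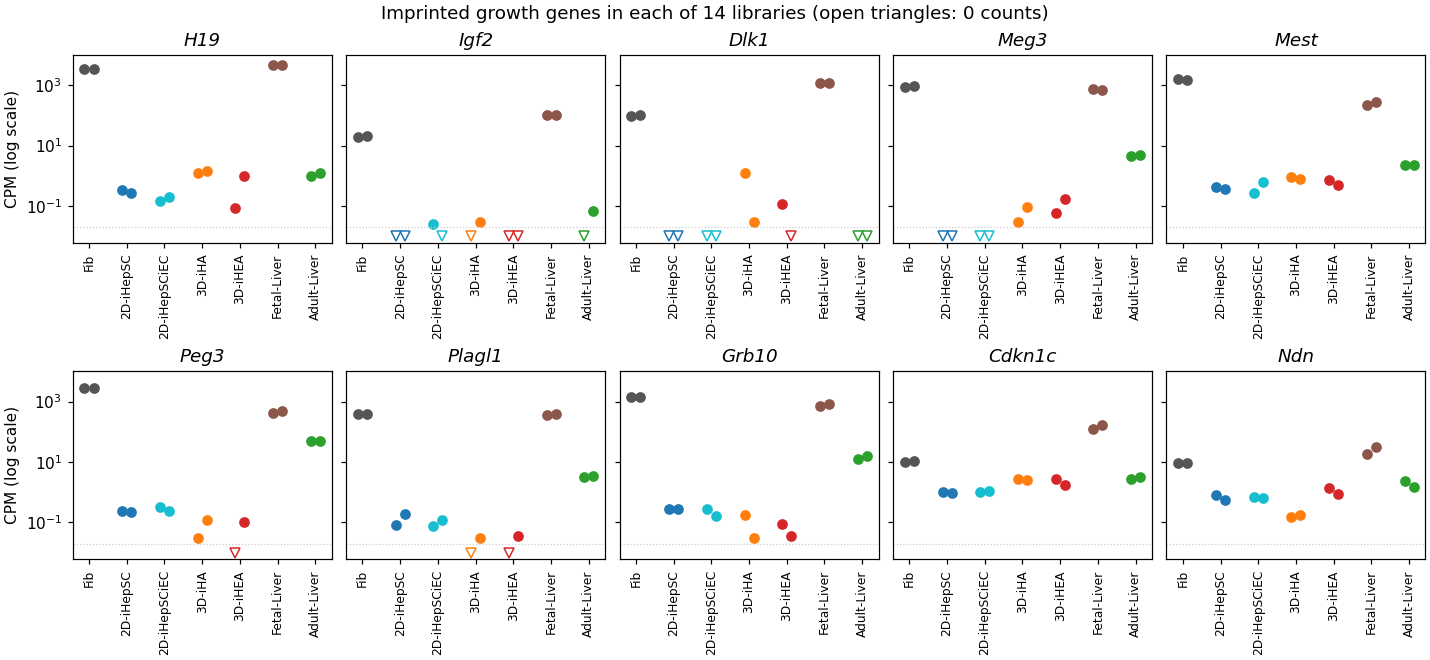
Level of each imprinted gene in each of the 14 libraries, in CPM on a log scale, with 1 point per library and open triangles at the foot of the panel for libraries with 0 counts. Fib and Fetal-Liver sit at the top of every panel. By TMM-scaled CPM, Adult-Liver lies between them and the cultures for Meg3, Mest, Peg3, Plagl1, Grb10 and Ndn. For Mest and Ndn this placement rests on the scaling. The 8 culture libraries lie below all 4 Fib and Fetal-Liver libraries in all 10 panels.

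Promoter sequences are shown for members that were high or low together in these libraries. RefSeq promoter entries were matched for 8 of the 10 members, namely Igf2, Dlk1, Meg3, Ndn, Peg3, Mest, Plagl1 and Grb10, with 15 start sites in all. H19 and Cdkn1c had no entry. The 250 bases before the start (GRCm38.p6) are printed 5′ to 3′ for the most abundant matched members in fibroblasts and for Dlk1, with each CG dinucleotide, the site of CpG methylation, in capitals. They lie at chr7:6730420-6730669 on the minus strand (Peg3), chr6:30737800-30738049 on the plus strand (Mest), chr11:12037421-12037670 on the minus strand (Grb10), and chr12:109540746-109540995 (Meg3) and chr12:109452573-109452822 (Dlk1), both on the plus strand.
Peg3: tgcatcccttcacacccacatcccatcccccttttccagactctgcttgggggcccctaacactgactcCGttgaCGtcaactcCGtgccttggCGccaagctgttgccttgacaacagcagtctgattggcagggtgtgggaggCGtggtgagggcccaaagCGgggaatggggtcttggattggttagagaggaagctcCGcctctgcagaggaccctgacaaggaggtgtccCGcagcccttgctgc
Mest: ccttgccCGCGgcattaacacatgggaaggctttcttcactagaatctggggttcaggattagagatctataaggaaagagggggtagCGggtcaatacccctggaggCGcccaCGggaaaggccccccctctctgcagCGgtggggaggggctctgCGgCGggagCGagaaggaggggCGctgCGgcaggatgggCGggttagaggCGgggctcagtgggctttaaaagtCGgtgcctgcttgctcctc
Grb10: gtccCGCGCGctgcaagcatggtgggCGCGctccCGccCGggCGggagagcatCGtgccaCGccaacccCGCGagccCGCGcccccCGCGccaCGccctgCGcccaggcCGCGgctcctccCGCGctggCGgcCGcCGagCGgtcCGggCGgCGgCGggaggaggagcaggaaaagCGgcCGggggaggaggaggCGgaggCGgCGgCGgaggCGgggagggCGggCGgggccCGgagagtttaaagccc
Meg3: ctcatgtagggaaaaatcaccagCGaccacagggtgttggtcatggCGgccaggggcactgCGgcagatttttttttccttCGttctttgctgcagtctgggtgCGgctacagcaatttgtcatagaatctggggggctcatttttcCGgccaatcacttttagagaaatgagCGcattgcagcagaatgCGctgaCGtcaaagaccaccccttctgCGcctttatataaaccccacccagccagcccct
Dlk1: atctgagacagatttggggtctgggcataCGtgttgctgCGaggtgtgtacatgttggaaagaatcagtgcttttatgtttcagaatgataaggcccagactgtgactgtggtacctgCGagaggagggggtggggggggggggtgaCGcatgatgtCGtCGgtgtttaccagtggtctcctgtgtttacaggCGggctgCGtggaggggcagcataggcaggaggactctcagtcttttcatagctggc

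Where a printed member had more than 1 start, the start with the most CG dinucleotides was chosen. The number of CG dinucleotides in these stretches ranged from 8 in Peg3 and Dlk1 through 10 in Meg3 and 14 in Mest to 40 in Grb10. For Meg3, Mest and Grb10 these numbers reflect that choice. Over all 15 start sites the median was 8, against 6 over the 32851 start sites of the reference table. The printed Grb10 stretch stood at the dense end, since 1.31% of all start sites had at least as many. The other Grb10 start held 8, and 43.0% of all start sites had at least as many. Another Mest start held 7, another Meg3 start held 0 and an Igf2 start held 1, so the members shared no common CpG density. On either strand, the letters GGGCGG (the core of a GC box) were found at 7 of the 15 member starts and at 32.7% of all starts, CCAAT at 3 and at 33.8%, TATAAA at 1 (Meg3) and at 12.4%, and ATGGCGG (the core of a YY1 motif) at 1 (Meg3) and at 2.21%. None of these motifs contains another. These are matches of letters in a short window and no methylation was measured in this series.

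The question behind the comparison of 2D-iHepSC with Fib was how the transcriptome of reprogrammed hepatic stem cells differs from that of the fibroblasts they came from. All 10 members were lower in 2D-iHepSC (edgeR quasi-likelihood test, adjusted p of at most 1.26e-08 for each), where 38.2% of all tested genes were lower and 83.9% differed in either direction. The ratio of mean levels, or its bound where 2D-iHepSC had no count, ran from 1148 (Dlk1) to 12221 (Peg3) for H19, Dlk1, Meg3, Peg3, Mest, Plagl1 and Grb10, and was 227 (bound) for Igf2, 13.6 for Ndn and 10.2 for Cdkn1c. Igf2, Dlk1, Meg3, Peg3, Plagl1 and Grb10 passed the filter on low counts only through the Fib and liver libraries in which they were high, so the count is a description. Fibroblast markers were lower in the same comparison, 8 of 8 tested with a median log2 fold change of -13.36, and their part in the members' levels was not tested. The median log2 fold change of the members was -12.25 (-11.68 with the 3 genes without a count in 2D-iHepSC set at their bound), against 0.11 for all tested genes.

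H19, a maternally expressed long non-coding RNA that is among the most abundant transcripts of the fetal liver, had the most counts of the members in both embryonic sources. It lies at chr7:142575529-142578143 on the minus strand of GRCm38. It had 126152 and 105871 counts in Fib and 12 and 9 counts in 2D-iHepSC. The mean level went from 3465 ± 12.6 CPM (SD, n = 2) to 0.301 ± 0.0368 CPM (SD, n = 2), a log2 fold change of -13.46 (SE 0.26, edgeR adjusted p = 3.06e-16). Fetal-Liver had 149262 and 132415 counts, slightly above Fib, and Adult-Liver had 14 and 19. H19 therefore had 105871 counts or more per library in both embryonic sources and 47 or fewer in every culture and adult library.

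Igf2, the insulin-like growth factor that drives fetal growth, is the neighbour of H19 and lies at chr7:142650766-142666816 on the minus strand. It had 684 and 630 counts in Fib, 3221 and 3093 in Fetal-Liver, and 0 or 1 in each of the 8 culture libraries and in each Adult-Liver library. The Fib level was at least 227-fold higher than the 2D-iHepSC level, taking 3 counts per library as the bound for the group without a count. Of the Igf2 exon bases, 64.5% are shared with other annotated genes, mostly with Gm49394 on the same strand, which had no row in the count table, so the absolute Igf2 level is uncertain in all libraries. The antisense row Igf2os had the same profile, with 40 and 48 counts in Fib, 368 and 336 in Fetal-Liver and at most 1 in every other library, and whether strand was used in counting is not given in the sources used here.

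Dlk1 and Meg3 lie side by side in the Dlk1-Dio3 cluster of chromosome 12. Dlk1 (chr12:109452823-109463336, plus strand) encodes a membrane protein related to Notch ligands and marks fetal hepatoblasts, and Meg3 (chr12:109541001-109571726, plus strand) is a maternally expressed long non-coding RNA. Dlk1 had 3381 and 3244 counts in Fib, 38125 and 35753 in Fetal-Liver, and 0 in all 4 flat-culture libraries and both Adult-Liver libraries. Meg3 had 32212 and 28018 counts in Fib, 24012 and 21095 in Fetal-Liver, 65 and 73 in Adult-Liver, and 0 in all 4 flat-culture libraries. The Fib levels were at least 1148-fold (Dlk1) and at least 10392-fold (Meg3) above those of 2D-iHepSC. The pair thus shared the absence of counts in flat culture, while only Meg3 kept counts in both adult liver libraries.

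Peg3, Mest and Plagl1 are paternally expressed and encode intracellular proteins. Peg3 (chr7:6703892-6730431, minus strand), a large zinc finger protein, had 103694 and 84927 counts in Fib and 9 and 7 in 2D-iHepSC. Mest (chr6:30723547-30748465, plus strand), a membrane-bound enzyme-like protein, had 56125 and 45923 counts in Fib and 16 and 12 in 2D-iHepSC. Plagl1 (chr10:13060504-13131694, plus strand), a zinc finger transcription factor known to act on other imprinted genes, had 13954 and 11690 counts in Fib and 3 and 6 in 2D-iHepSC. The log2 fold changes were -13.55 (SE 0.18), -11.87 (SE 0.17) and -11.48 (SE 0.14), and the libraries of the groups did not overlap. In exon bases, 23.1% of Mest is shared with Copg2 on the opposite strand, whose own row held 1670 to 3037 counts in the cultures.

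Grb10 and Cdkn1c are maternally expressed in most tissues and restrain growth. Grb10 (chr11:11930508-12038683, minus strand), an adaptor that dampens insulin and IGF1 receptor signalling, had 50773 and 42197 counts in Fib and 10 and 9 in 2D-iHepSC, a log2 fold change of -12.29 (SE 0.17). Cdkn1c (chr7:143458339-143461050, minus strand), the cyclin-dependent kinase inhibitor p57, behaved more mildly, with 367 and 321 counts in Fib and 38 and 32 in 2D-iHepSC (-3.35, SE 0.22). Ndn (chr7:62346569-62350262, plus strand), the MAGE family protein necdin, likewise kept counts, with 331 and 280 in Fib and 29 and 18 in 2D-iHepSC (-3.75, SE 0.31). Both were among the least abundant members in Fib already. Per kilobase of exon, the Fib level was 2.47 CPM for Ndn and 5.05 CPM for Cdkn1c, against 1408 CPM for H19, 385.8 CPM for Mest and 211.2 CPM for Peg3. In 2D-iHepSC the order was led by Cdkn1c at 0.494 CPM and Ndn at 0.181 CPM per kilobase, ahead of H19 at 0.122 CPM. Of the Cdkn1c exon bases, 30.7% are shared with Gm44732 on the opposite strand, which had no row in the table.

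**Figure D2:**
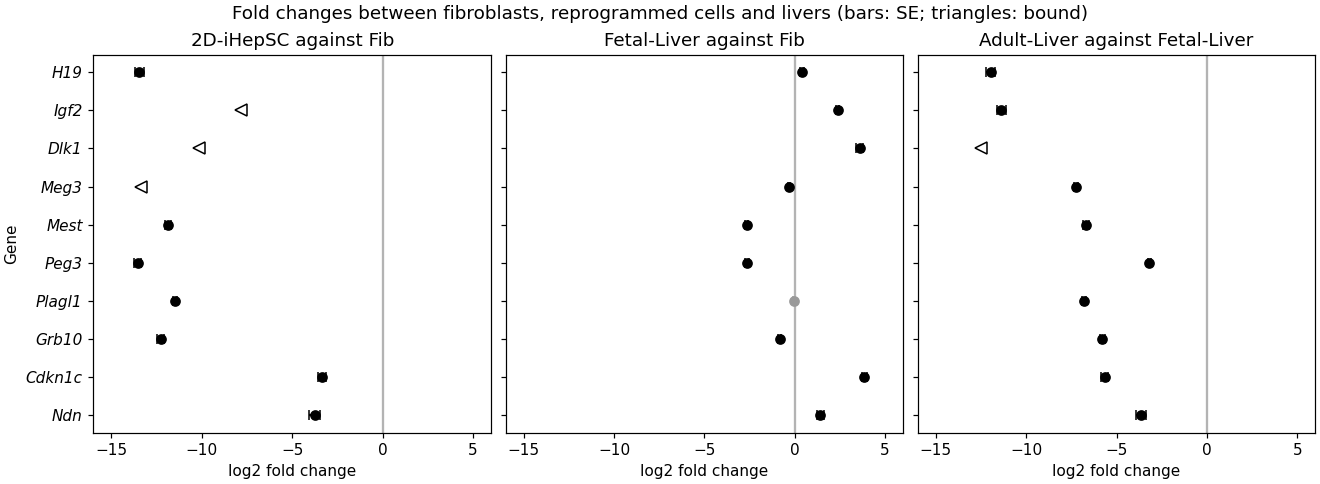
Log2 fold change of each imprinted gene in 2D-iHepSC against Fib, in Fetal-Liver against Fib and in Adult-Liver against Fetal-Liver, with bars for the SE, open triangles for lower bounds of the size where a group had no count, and grey for the gene that did not pass the test. All points lie below 0 in the panels of 2D-iHepSC and of Adult-Liver, with estimated values from -3.35 to -13.55 in 2D-iHepSC, while the panel of Fetal-Liver against Fib runs from -2.66 (Mest) to 3.85 (Cdkn1c).

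H19, Igf2, Mest and Meg3 host microRNA hairpins, and the mature sequences are given because they are products of the member transcripts themselves. They are written 5′ to 3′ from RefSeq (GRCm38.p6) with the seed, bases 2 to 8, in capitals.
miR-675-5p: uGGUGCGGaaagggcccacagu
miR-675-3p: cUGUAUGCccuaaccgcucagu
miR-483-5p: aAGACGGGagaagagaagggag
miR-483-3p: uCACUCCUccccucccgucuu
miR-335-5p: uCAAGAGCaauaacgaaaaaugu
miR-335-3p: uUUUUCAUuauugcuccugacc
miR-770-5p: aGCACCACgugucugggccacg
miR-770-3p: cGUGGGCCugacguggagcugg

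No seed was shared between these 8 sequences. The miR-675 pair lies within an exon of H19 and the miR-770 pair within exons of Meg3, whereas the miR-483 and miR-335 pairs lie in introns of Igf2 and Mest, all on the strand of their host. The hairpin rows of the count table hold reads of the RNA-seq libraries and not mature microRNAs. Mir335 had 41 and 28 counts in Fib, 4 and 0 in Fetal-Liver, and 0 or 1 elsewhere. Mir483 had 23 and 25 counts in Fetal-Liver, 6 and 4 in Fib and 0 elsewhere. Each of these intronic rows was thus highest in the condition where its host was highest. Mir675 and Mir770 had 0 counts in all 14 libraries, including the Fib and Fetal-Liver libraries in which H19 and Meg3 were abundant.

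Fetal-Liver was compared with Fib to place both embryonic sources beside each other. In all, 5 members were higher in Fetal-Liver (H19, Igf2, Dlk1, Cdkn1c and Ndn), 4 were lower (Meg3, Peg3, Mest and Grb10) and Plagl1 did not pass the test, where 86.3% of all tested genes differed, 44.4% higher and 41.9% lower. The largest increases were those of Cdkn1c and Dlk1. Cdkn1c had 4128 and 4991 counts in Fetal-Liver, a level 14.4-fold above Fib (log2 3.85, SE 0.13). Dlk1 was higher by a log2 of 3.58 (SE 0.18, edgeR adjusted p = 5.98e-10), and Igf2 was 5.18-fold higher (log2 2.37, SE 0.09). The Dlk1 call was lost with the Wald test of DESeq2 (log2 3.57, adjusted p = 0.171).

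Ndn had 585 and 899 counts in Fetal-Liver against 331 and 280 in Fib, 2.66-fold higher (log2 1.41, SE 0.20). The Fetal-Liver library with more Ndn also had more fibroblast-marker counts, with 26916 against 16349 for Col1a1 and 32441 against 22676 for Col3a1. The fibroblast list summed to 1812 to 3061 CPM in Fetal-Liver with none of its 10 genes at the floor, and the erythroid list of 8 genes summed to 33605 to 34332 CPM. The part of these other cells in the members' levels was not tested. H19 was 1.31-fold higher in Fetal-Liver (log2 0.39, SE 0.13, edgeR adjusted p = 0.0106), and this call was lost without either Fib library (adjusted p = 0.0546 and 0.0513) and with DESeq2 (adjusted p = 0.602).

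The members that were lower in Fetal-Liver remained abundant there. Peg3 had 13377 and 14588 counts, 6.21-fold below Fib (log2 -2.63, SE 0.09). Mest had 6976 and 7844 counts, 6.33-fold below (log2 -2.66, SE 0.09). Grb10 had 24025 and 24495 counts (log2 -0.82, SE 0.08), and Meg3 was lower by a log2 of -0.31 (SE 0.06). Plagl1 had 11567 and 11244 counts in Fetal-Liver against 13954 and 11690 in Fib, a log2 difference of -0.05 (SE 0.06, edgeR adjusted p = 0.396). The members therefore differed in direction between the embryonic sources.

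All 10 members were lower in Adult-Liver than in Fetal-Liver, where 43.8% of tested genes were lower and 83.7% differed. The same limit holds here, since members such as Dlk1 and Igf2 passed the filter only through Fib and Fetal-Liver, and the count is a description. The median log2 fold change was -6.74, against -0.10 for all tested genes. Fibroblast markers were lower as well, 8 of 8 tested (median log2 -2.58, summed level 222.3 to 227.6 CPM in Adult-Liver). So were 7 of 7 tested erythroid markers (median log2 -5.43, summed level 636.3 to 685.4 CPM). Of 5 endothelial markers, 2 were higher and 1 lower, and of 6 cholangiocyte and epithelial markers, 2 were higher and 2 lower. Among all tested genes, 40.0% were higher. The part of these other cells in the members' decrease was not tested. Dlk1 had no count in Adult-Liver, so the Fetal-Liver level was at least 5783-fold higher. H19 was lower by a log2 of -11.96 (SE 0.24), and Igf2, with 1 count in the adult libraries together, had a ratio of 2964 (95% counting interval 532 to 117086).

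Other members kept clear counts in the adult organ. Peg3 had 723 and 730 counts and was the highest member there per kilobase of exon, at 3.75 CPM, with the smallest decrease (log2 -3.18, SE 0.10). Grb10 had 176 and 240 counts (log2 -5.78, SE 0.11). Meg3 (65 and 73 counts), Plagl1 (46 and 50), Cdkn1c (38 and 47), Mest (33 and 35) and Ndn (34 and 22) changed by log2 -7.26, -6.80, -5.66, -6.68 and -3.65. By TMM-scaled CPM, the Adult-Liver libraries lay above all 8 culture libraries for Meg3, Peg3, Plagl1, Mest, Ndn and Grb10. No test compared these conditions. The TMM factors were 0.429 and 0.438 in Adult-Liver against 1.11 to 1.20 in the cultures. Counts were far apart for Meg3, Peg3, Plagl1 and Grb10, with at most 13 per culture library. For Ndn (up to 48 counts in 3D-iHEA) and Mest (up to 30 in 3D-iHA) they were not, so that order rests on the scaling. For H19, Adult-Liver at 1.13 ± 0.210 CPM (SD, n = 2) overlapped 3D-iHA at 1.34 ± 0.130 CPM and was next to it in order. In counts, H19 had 14 and 19 in Adult-Liver and 42 and 47 in 3D-iHA, so this overlap also rests on the scaling.

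Within the cultures, 4 members (H19, Mest, Cdkn1c and Ndn) passed the filter on low counts of the 8-library fit, and the other 6 were too low to enter it. H19 had 3 to 47 counts per culture library, Mest 11 to 30, Cdkn1c 26 to 94 and Ndn 5 to 48. Igf2, Dlk1, Meg3, Peg3, Plagl1 and Grb10 had medians of 0 to 5 counts per culture library. The plot of culture levels shows the tested genes.

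**Figure D3:**
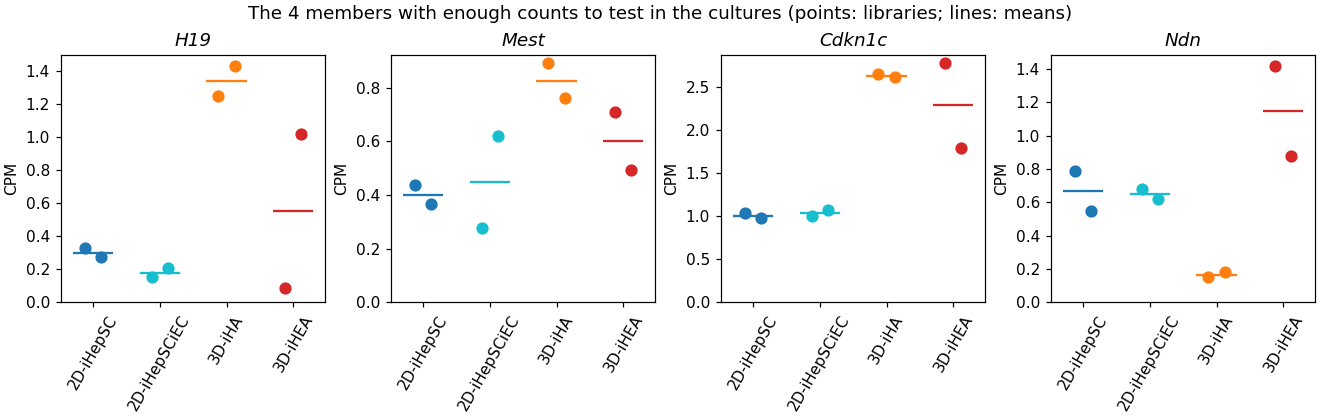
Levels of H19, Mest, Cdkn1c and Ndn in the 8 culture libraries in CPM on linear axes that start at 0, with 1 point per library and a line at the mean of each condition. Cdkn1c is higher in both 3D conditions than in the flat ones, Ndn is lowest in 3D-iHA (5 and 6 counts), and the H19 libraries of 3D-iHEA lie far apart (3 and 29 counts).

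The comparison of 3D-iHA with 2D-iHepSC asked what 3D culture changed in the hepatic cells alone. All 4 tested members changed, 3 upward and Ndn downward, where 72.3% of the 13409 genes tested in the cultures changed, 36.9% upward and 35.3% downward. H19 rose from 12 and 9 counts to 42 and 47, a log2 fold change of 2.18 (SE 0.61, edgeR adjusted p = 0.00595). Cdkn1c rose from 38 and 32 counts to 89 and 86 (log2 1.43, SE 0.25, adjusted p = 0.000203). Mest rose from 16 and 12 counts to 30 and 25 (log2 1.07, SE 0.39, adjusted p = 0.0243), a call that was lost with DESeq2 (adjusted p = 0.119) and without either 2D-iHepSC library or the first 3D-iHA library (adjusted p of 0.0712, 0.118 and 0.105). Ndn fell from 29 and 18 counts to 5 and 6 (log2 -1.96, SE 0.44, adjusted p = 0.0015).

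These increases were small beside the distance to the embryonic tissues. After the rise, H19 in 3D-iHA was at 1.34 CPM against 4544 ± 64.7 CPM (SD, n = 2) in Fetal-Liver. Cdkn1c at 2.63 ± 0.0179 CPM (SD, n = 2) was next to Adult-Liver at 2.92 ± 0.351 CPM. The lowest Adult-Liver library was at 2.67 CPM and the highest 3D-iHA library at 2.64 CPM. This order rests on the TMM factors, 0.429 and 0.438 in Adult-Liver against 1.17 in both 3D-iHA libraries. In counts, Cdkn1c had 38 and 47 in Adult-Liver and 89 and 86 in 3D-iHA. Fibroblast markers in 3D-iHA summed to 5.33 to 10.5 CPM, with Col1a2, Thy1 and Postn at or under the floor.

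Dlk1 gave an unequal pair in 3D-iHA, with 41 counts in the first library and 1 in the second, after 0 in both 2D-iHepSC libraries. Among the fibroblast markers, the first library had 209 counts against 73 for Pdgfra, 59 against 39 for Col1a1 and 16 against 0 for Col3a1. Col1a2 had 0 in both libraries, and Thy1 and Postn were at or under the floor. Outside that list, Dcn had 61 against 14. The part of mesenchymal cells in the Dlk1 counts was not tested. With the members added to the tested genes, Dlk1 had a log2 fold change of 7.39 (adjusted p = 0.0104), which rests on that single library. In the same fit Plagl1, with 3 and 6 counts in 2D-iHepSC and 0 and 1 in 3D-iHA, had a log2 fold change of -2.79 (adjusted p = 0.0387), while Igf2, Meg3, Peg3 and Grb10 did not pass. With no filter Plagl1 did not pass (adjusted p = 0.127), and with all 14 libraries in the fit both Plagl1 (0.0161) and Meg3 (log2 3.95, adjusted p = 0.0263, 1 and 3 counts against 0 and 0) did. These Plagl1 levels, with 6 counts or fewer per library, were close to the floor.

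The comparison of 3D-iHEA with 2D-iHepSCiEC asked the same of cultures with endothelial cells. Of the 4 tested members, 2 were higher and 2 did not pass, where 70.9% of tested genes differed, 36.0% higher and 34.9% lower. Cdkn1c had 94 and 51 counts in 3D-iHEA against 40 and 26 in 2D-iHepSCiEC (log2 1.19, SE 0.26, edgeR adjusted p = 0.00112). Ndn had 48 and 25 counts against 27 and 15 (log2 0.86, SE 0.33, adjusted p = 0.0313), and its call was lost with all 14 libraries in the fit (adjusted p = 0.105), with DESeq2 (0.174), without either 2D-iHepSCiEC library (0.106 and 0.107) and without the first 3D-iHEA library (0.296). Mest had 24 and 14 counts against 11 and 15 (log2 0.57, SE 0.42, adjusted p = 0.235), and passed without the second 2D-iHepSCiEC library (log2 1.17, adjusted p = 0.0480). With the members added to the tested genes, Meg3 (2 and 5 counts against 0 and 0, adjusted p = 0.0186) and Peg3 (0 and 3 against 13 and 6, adjusted p = 0.0169) also passed, both at or near the floor. With no filter Peg3 passed (0.0171) and Meg3 did not (0.0584), and with all 14 libraries in the fit both passed (0.0147 and 0.0059).

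H19 in 3D-iHEA depended on the library. It had 3 counts in the first and 29 in the second, against 6 and 5 in 2D-iHepSCiEC, so the ranges overlapped and the log2 difference of 1.62 (SE 0.81, adjusted p = 0.0891) did not pass. With no filter on low counts the difference passed (log2 1.64, adjusted p = 0.00359). Without the first 3D-iHEA library it was 2.59 (adjusted p = 4.28e-05), and without the second 3D-iHEA library it was -0.89 (adjusted p = 0.358). The second library is the one whose column name carries conflicting numbers, so it was used as a 3D-iHEA library without a number.

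The comparison of 3D-iHEA with 3D-iHA asked what the endothelial cells added in 3D. Ndn alone among the 4 tested members differed, where 2.26% of tested genes did and 1.19% were higher. It had 48 and 25 counts in 3D-iHEA against 5 and 6 in 3D-iHA, 7.08-fold higher (95% counting interval 3.74 to 14.8), with a log2 fold change of 2.79 (SE 0.41, edgeR adjusted p = 0.00372). Without the first 3D-iHA library the estimate was 2.65 and the adjusted p = 0.0601. H19 (log2 -1.34, SE 0.57), Mest (-0.44, SE 0.37) and Cdkn1c (-0.19, SE 0.23) did not pass, although the H19 difference passed with no filter on low counts (log2 -1.34, adjusted p = 0.0152) and without the second 3D-iHEA library (log2 -3.86, adjusted p = 7.29e-05). With no filter Dlk1 passed too (4 and 0 counts against 41 and 1, log2 -3.24, adjusted p = 0.00135), which rests on the first 3D-iHA library and did not pass with the members added to the tested genes (0.323) or with all 14 libraries in the fit (0.345).

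In flat culture the addition of endothelial cells left no called difference in the 4 members, where 8.17% of tested genes were called by edgeR, 4.26% higher and 3.92% lower. At an unadjusted p under 0.05 the count was 0 of 4, and DESeq2 called 0 as well. The log2 differences were -0.78 (SE 0.88) for H19, 0.06 (SE 0.44) for Mest, 0.05 (SE 0.28) for Cdkn1c and -0.03 (SE 0.35) for Ndn. With 5 to 12 counts per flat-culture library, the H19 estimate had the widest error. The endothelial effect in 3D minus that in flat culture was 2.82 (SE 0.55, edgeR adjusted p = 0.0163) for Ndn, and did not pass for H19 (-0.55, SE 1.10), Mest (-0.50, SE 0.58) or Cdkn1c (-0.24, SE 0.36), where 3.14% of tested genes passed and 1.52% passed upward. The Ndn call was lost with all 14 libraries in the fit (adjusted p = 0.0842), without the first 2D-iHepSC library (0.107), either 2D-iHepSCiEC library (0.0815 and 0.0724) or either 3D-iHA library (0.0952 and 0.0650), and DESeq2 gave it no adjusted p. The H19 term passed without the second 3D-iHEA library (log2 -3.08, adjusted p = 0.0350). The Ndn levels behind it were 0.670 ± 0.170, 0.648 ± 0.0406, 0.166 ± 0.0242 and 1.15 ± 0.384 CPM (SD, n = 2) in 2D-iHepSC, 2D-iHepSCiEC, 3D-iHA and 3D-iHEA. All lay below the lowest Fib or Fetal-Liver library at 9.07 CPM.

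The endothelial cells were human according to the methods and the counts are of mouse genes. The 5 mouse endothelial markers summed to 785.4 to 851.0 CPM in 3D-iHEA and 1083 to 1218 CPM in 3D-iHA. How reads of the human cells were assigned was not tested.

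Imprinted genes next to the members were read in the same libraries to see whether whole clusters or single genes were low. Of 56 other imprinted genes, 25 lie within 1 Mb of a member, and 13 of these had at least 100 counts in both Fib libraries. Of the 13, 6 (Rtl1, Rian, Mirg, Dio3, Usp29 and Zim1) had at most 4 counts in every culture library, and the remaining 7 (Cd81, Tssc4, Kcnq1ot1, Nap1l4, Osbpl5, Copg2 and Cobl) had at least 240 counts in every culture library. None of the 13 lay in between. The share of all genes with such counts was not computed, so this split is a description. The limit of 100 counts left out neighbours with few counts in Fib, some of which had more in the cultures. Whether each listed gene is imprinted in these cells was not tested.

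The first set belongs to the Dlk1-Dio3 and Peg3 loci. Rian, a non-coding RNA 32.2 kb from Meg3, had 17627 and 14477 counts in Fib, 22625 and 20186 in Fetal-Liver and 0 to 4 in the cultures. Mirg had 991 and 843 counts in Fib and 0 in all 8 culture libraries. Zim1, 7.44 kb from Peg3, had 33191 and 27085 counts in Fib and 0 or 1 in the cultures. Usp29, which starts 0.147 kb from Peg3, had 553 to 595 counts in Fib and at most 1 in the cultures. In these loci, members and neighbours were low together.

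The second set kept at least 240 counts in every culture library, with changes in 2D-iHepSC against Fib from a log2 of -1.41 (Kcnq1ot1, SE 0.14) to 0.34 (Cobl, SE 0.09). Copg2, which overlaps the end of Mest, had 4260 and 3218 counts in Fib and 1670 to 3037 in the cultures, where Mest had 11 to 30. Around Cdkn1c, Nap1l4 had 2149 to 4249 counts and Kcnq1ot1, the non-coding RNA of that imprinting domain, had 240 to 427 in the cultures against 849 and 699 in Fib. Cd81, 386 kb from Igf2, had 6890 to 15365. Cobl, 198 kb from Grb10, had 1879 to 5576 counts in the cultures, where Grb10 had 1 to 11. Phlda2 and Kcnq1, both close to Cdkn1c, even had more counts in 2D-iHepSC than in Fib. Phlda2 had 60 and 50 against 1 and 1 (log2 5.54, SE 0.45), and Kcnq1 had 77 and 60 against 2 and 1 (log2 5.33, SE 0.41). Slc22a18, 12.7 kb from Cdkn1c, had 246 to 831 counts in the cultures against 20 to 23 in Fib. Near Ndn, Mkrn3 had 46 to 76 in the cultures against 6 to 10 in Fib. Peg12 there had 0 to 2 against 25 to 37, and Magel2 had 0 to 2 against 0.

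**Figure D4:**
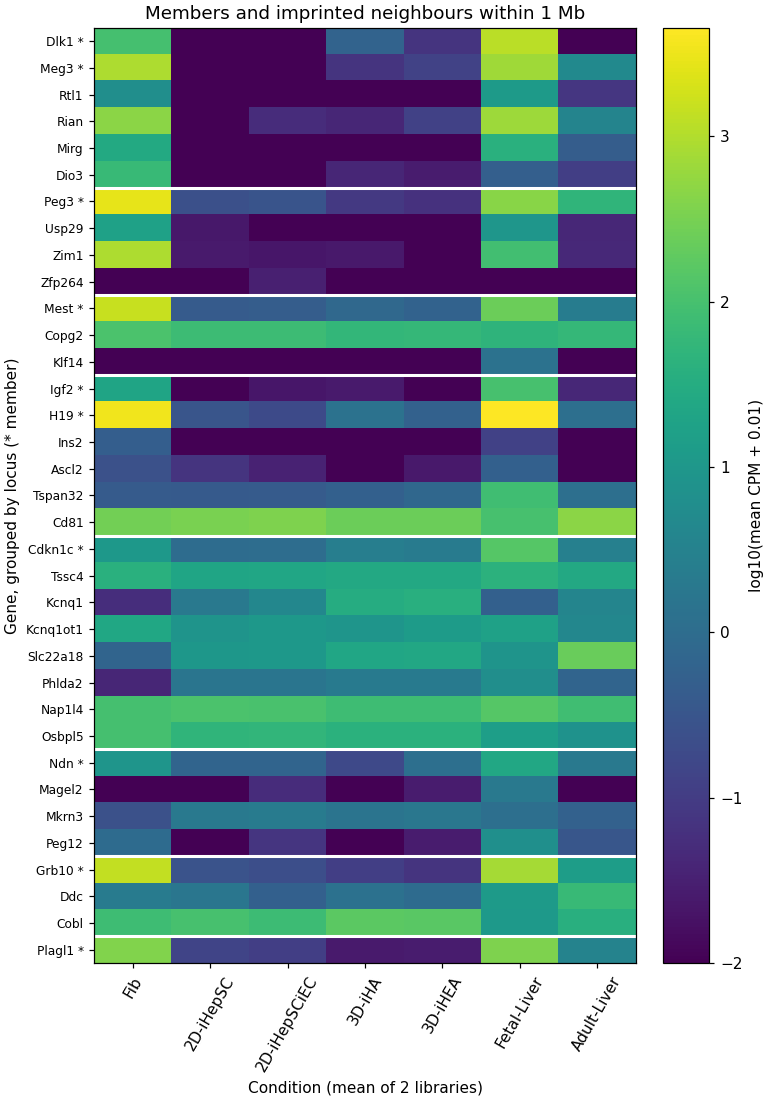
Mean level of each member (asterisk) and of the listed imprinted genes within 1 Mb of it, as log10(mean CPM + 0.01), in rows grouped by locus and with 1 column per condition. The Dlk1-Meg3 and Peg3 blocks are dark in the 4 culture columns, least so for Dlk1 in 3D-iHA, where 1 library had 41 counts, whereas Copg2, Cd81, Nap1l4, Osbpl5 and Cobl keep a similar shade across Fib and the cultures.

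Over the whole list of 56 other imprinted genes, 38 could be tested in 2D-iHepSC against Fib, of which 16 were higher, 17 were lower and 5 did not pass, with a median log2 fold change of -0.29. The shares were near those of all tested genes, 45.7% higher and 38.2% lower. The largest changes were decreases in Rian, Zim1, Sgce and Peg10. Sgce, with 3447 and 2729 counts in Fib, and Peg10, with 1500 and 1250, are adjacent imprinted genes and had 0 counts in all 8 culture libraries, so Fib was at least 1061-fold and at least 474-fold above 2D-iHepSC. Igf2r, the maternally expressed receptor that clears IGF2, had 12117 and 10234 counts in Fib and 9414 to 15487 in the cultures (log2 0.26, SE 0.06, in 2D-iHepSC).

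In Adult-Liver against Fetal-Liver the same list gave 15 higher, 21 lower and 2 that did not pass among 38 tested, where 40.0% of all tested genes were higher and 43.8% lower. In 3D-iHA against 2D-iHepSC it gave 8 higher and 11 lower of 29 tested, where 36.9% and 35.3% of all tested genes were. There Kcnq1 rose from 77 and 60 counts to 1132 and 1028 (log2 4.08, SE 0.10), Peg13, a non-coding RNA, rose from 119 and 99 to 1128 and 1100 (log2 3.46, SE 0.12), and Nnat fell from 122 and 88 to 23 and 32. In 3D-iHEA against 2D-iHepSCiEC it gave 10 higher and 11 lower of 29, where 36.0% and 34.9% of all tested genes were, led again by Peg13 (log2 3.31, SE 0.12) and Kcnq1 (log2 3.17, SE 0.09). Kcnq1 was also the single gene of the list to pass the test of the difference between the endothelial effects (log2 -0.91, SE 0.15). With median centring, no filter, the stricter filter or DESeq2, 2 genes of the list passed. The Kcnq1 call was not kept in all fits that left out 1 library.

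The IGF pathway was read from a list of 19 genes. In 2D-iHepSC against Fib, 7 were higher, 8 were lower and 3 did not pass among 18 tested, close to the shares of all tested genes (45.7% higher and 38.2% lower). The ligand Igf1 had 5247 and 4186 counts in Fib, 20705 and 20362 in Adult-Liver and 0 or 1 in each culture library. The binding proteins Igfbp2 and Igfbp5 had 102756 to 123801 counts in each Fib library and 0 in both 2D-iHepSC libraries, and Pappa, a protease of IGF binding proteins, had 5422 and 4435 against 0. Receptors stayed present. Insr had 2002 to 5382 counts and Igf1r 658 to 1270 in the cultures, with Igf1r lower in 2D-iHepSC than in Fib by a log2 of -2.46 (SE 0.07).

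The RNA-binding proteins of the Igf2bp family, which bind Igf2 and H19 transcripts, were present in the cultures at differing levels relative to Fetal-Liver. Igf2bp1 had 1756 and 1694 counts in 2D-iHepSC and 1324 and 1184 in Fib (log2 0.41, SE 0.07), and 1 and 0 in Adult-Liver. Igf2bp2 had 4782 and 4272 counts in 2D-iHepSC and 1825 and 1516 in Fib (log2 1.39, SE 0.06). In mean CPM, Igf2bp1 was at 25.1 to 54.6 in the culture conditions against 103.9 in Fetal-Liver, Igf2bp2 at 89.3 to 132.3 against 65.7, and Igf2bp3 at 2.10 to 4.88 against 42.1. The cultures were thus below Fetal-Liver for Igf2bp1 and Igf2bp3 and above it for Igf2bp2. In 3D-iHA, 2 of the 13 tested genes of the list were higher and 7 were lower than in 2D-iHepSC, where 36.9% and 35.3% of all tested genes were. Igf2bp1 (log2 -0.94, SE 0.07), Igf2bp3 (-1.11, SE 0.16) and Igfbp7 (-4.01, SE 0.33) fell there and Insr rose (0.97, SE 0.06).

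Cdkn1c was set beside the other 6 cyclin-dependent kinase inhibitors. In 2D-iHepSC against Fib, 2 were higher and 4 were lower, where 45.7% of all tested genes were higher and 38.2% were lower. Cdkn1a (p21) had 13266 and 12048 counts in 2D-iHepSC against 3234 and 2903 in Fib (log2 1.99, SE 0.07), and Cdkn2a had 92 and 104 against 2219 and 1978 (log2 -4.47, SE 0.14). In 3D-iHA against 2D-iHepSC, 5 of the 6 were lower and 1 did not pass, with a median log2 fold change of -1.21 (0.01 for all tested genes, of which 35.3% were lower), while Cdkn1c rose by 1.43. The counts in 3D-iHEA against 2D-iHepSCiEC were the same, with 5 lower and a median of -1.24 (34.9% of all tested genes were lower), while Cdkn1c was higher by 1.19. Cdkn1a still had 6086 and 5393 counts in 3D-iHA, where Cdkn1c had 89 and 86.

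Of 13 genes with roles in keeping or removing DNA methylation at imprints, 11 were tested in 2D-iHepSC against Fib, with 3 higher, 6 lower and 2 that did not pass, where 45.7% of all tested genes were higher and 38.2% lower. Zfp57, a zinc finger protein that protects imprint methylation, had 8515 and 7317 counts in 2D-iHepSC against 2073 and 1734 in Fib (log2 2.00, SE 0.10). Tet1, an enzyme that oxidises methylcytosine, had 4 and 4 counts against 679 and 554 (log2 -7.27, SE 0.24). Dnmt1, the maintenance methyltransferase, had 5757 and 5047 counts against 5298 and 4420 and did not pass. In 3D-iHA, Zfp57 (log2 -1.27, SE 0.07), Uhrf1 (-1.27, SE 0.07) and Dnmt1 (-1.10, SE 0.05) were lower than in 2D-iHepSC, and 5 of 10 tested genes of the list were lower and 1 higher, where 35.3% and 36.9% of all tested genes were.

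A list of 7 fetal liver genes and their postnatal repressors gave 3 higher and 3 lower of 6 tested in 2D-iHepSC against Fib, where 45.7% of all tested genes were higher and 38.2% lower. Afp, the fetal albumin relative, had 1172 and 1096 counts in 2D-iHepSC and none in Fib. Hmga2, a chromatin protein of fetal cells, had 20965 and 18320 against 1030 and 902 (log2 4.29, SE 0.08). Gpc3, a fetal liver proteoglycan, had 962 and 818 counts in Fib, 15469 and 14831 in Fetal-Liver and 0 to 2 in every culture library. Zhx2, known as a postnatal repressor of H19, Afp and Gpc3 in liver, had 626 and 449 counts in Fib, 419 and 399 in Adult-Liver and 0 to 4 in every culture library. In mean CPM, Afp was at 15.7 to 32.7 in the culture conditions against 12372 in Fetal-Liver.

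Across the 14 libraries, log2 CPM of the members correlated with Pearson r from 0.729 (Cdkn1c with Peg3) to 0.993 (Grb10 with Plagl1). This is a description over 14 points, which share the 4 embryonic libraries at the high end. For each member the 3 genes of the table with the most similar profile had r of 0.957 to 0.996. Those of Meg3 were Rian (0.995), Myom1 (0.993) and Nynrin (0.992), so its nearest gene in profile was also a neighbour on the chromosome. Plagl1 was most like Mvb12b (0.995), Grb10 (0.993) and Mirg (0.992). Mest was most like Tet1 (0.995), Igf2 was most like Smpd4 (0.996), and Grb10 was most like Armcx2 (0.996). Ndn had the least similar partners, led by Neurl1a at 0.966.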

How the data were processed

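RNA from 14 libraries of 7 conditions was sequenced as 150-base read pairs. According to the methods, the authors trimmed reads with Trimmomatic 0.36, aligned them to the mouse genome (GRCm38) with HISAT2 and deposited raw read counts per gene from HTSeq, with Cufflinks also named. Strand, multimapping and annotation release are not given in the sources used here. The column name of the second 3D-iHEA library carries conflicting numbers, so that library was assigned to its condition without a number.

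From the counts, edgeR 4.0.16 (R 4.3.3) with TMM scaling and quasi-likelihood tests was fitted on all 14 libraries for Fib and liver comparisons (14121 genes) and on the 8 culture libraries for culture comparisons (13409 genes), after removal of genes whose log2(count + 1) averaged under 3. P-values were adjusted by Benjamini-Hochberg over all tested genes, with a threshold of 0.05. CPM used the scaled library size. A group without a count was set at 3 counts per library to give a bound, and counting intervals and floors at 95% cover counting error only. DESeq2 1.42.0 was an alternative. The fits were also tested on simulated data. Annotation was GENCODE M21.

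All members are named, with up to 4 called genes per list and comparison by size of change, listed imprinted genes next to a member, and the 3 genes most similar to each member. Other list genes were chosen after their values were seen. The members and lists were chosen with earlier results of these data known.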

Additional observations from a re-analysis of the deposited data

Results flagged for a closer look

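The effect of endothelial cells on Ndn differed between 3D and flat culture, by an interaction term in the edgeR fit of the 8 culture libraries (2.82 on the log2 scale, SE 0.55, adjusted p = 0.0163). Ndn was higher with endothelial cells in 3D (48 and 25 counts against 5 and 6) and differed by -0.03 (SE 0.35) in flat culture (27 and 15 counts against 29 and 18). Over the alternatives the estimate ran from 2.43 to 3.11 and the adjusted p from 0.000176 to 0.107.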

How the results depend on the processing

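No member changed direction with its call under any alternative run. The members called in 2D-iHepSC against Fib ranged from 9 to 10 when 1 library was left out, in Adult-Liver against Fetal-Liver from 9 to 10 and in Fetal-Liver against Fib from 7 to 8 (9 with all libraries), where Igf2 fell under the filter on low counts in part of these fits. Culture calls rested on few counts and moved more. In 3D-iHA against 2D-iHepSC, 4 members were called, against 1 with a filter of at least 5, which leaves most members untested, 7 with all 14 libraries in the fit, and 3 to 4 leaving out 1 library. In 3D-iHEA against 2D-iHepSCiEC, 2 were called, against 4 with no filter, 1 with the stricter filter, 4 with the members added to the tested genes (chosen after seeing the data), 1 with DESeq2 and 1 to 2 leaving out 1 library. In 3D-iHEA against 3D-iHA, 1 was called, against 3 with no filter, 0 with the stricter filter and 0 to 2 leaving out 1 library, while all genes called went from 303 to 881 with no filter and 93 to 723 leaving out 1 library. In 2D-iHepSCiEC against 2D-iHepSC, 1096 genes were called, and 250 to 426 leaving out 1 library. For the difference between the endothelial effects, 1 member was called, against 0 with the stricter filter, 0 with all 14 libraries, 0 with DESeq2 (where Ndn had no adjusted p) and 0 to 2 leaving out 1 library, and all genes went from 421 to 901 with no filter and 129 to 959 leaving out 1 library. The cause of these shifts was not tested, apart from the genes a filter leaves out.

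Library numbers did not pair the samples, since deviations of same-numbered libraries correlated by -0.0704 to 0.0482. The replicate block gave 2 members and 617 genes in 3D-iHEA against 3D-iHA, 1945 genes in 2D-iHepSCiEC against 2D-iHepSC, and 2 members and 772 genes for the difference between endothelial effects. The same numbered libraries with no block, chosen after seeing the data, gave 2 and 646, 2002, and 2 and 791. Members with medians of 5 counts or fewer in the cultures were outside the main culture fit, and their calls in the fits that include them rest on few counts.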
